A study of Mus musculus with 27 samples.

Results

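The 8 genes described here, *Itga2b*, *Itgb3*, *Gp1ba*, *Gp9*, *Gp5*, *Pf4*, *Vwf* and *Selp*, are a fixed list of megakaryocyte and platelet lineage genes, chosen for the identity of their products and found by symbol in the 5 RNA-Seq tables of the study. All 8 were listed in the *Irf2bp2* and *Kdm1a* tables, of 18519 and 16465 genes, and 7 in the *Cbfa2t3*, *Gfi1b* and MEL tables, of 17681, 17067 and 16527 genes. *Selp* was the gene without a row there, and in the other tables it had at most 2 counts in a library. The other 7 passed the filter on low counts in every table.

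Megakaryocytes and erythroid cells derive from a common progenitor and share GATA1 and its partners, and megakaryocytes release platelets, the cell fragments that stop bleeding. Platelets carry several adhesion receptors, and the genes described here encode chains of 2 of them. The fibrinogen receptor is the integrin pair of *Itga2b* (CD41) and *Itgb3* (CD61), and the receptor for von Willebrand factor is the glycoprotein Ib complex, to which *Gp1ba*, *Gp9* and *Gp5* contribute subunits. *Pf4* (platelet factor 4, a chemokine) and *Vwf* (von Willebrand factor) encode cargo of the alpha granules, and *Selp* encodes P-selectin of the granule membrane.

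All libraries came from mouse erythroleukaemia (MEL) cells, a transformed erythroid progenitor line (the C88 clone) that matures along the erythroid lineage when induced. ETO2 (encoded by *Cbfa2t3*), IRF2BP2, GFI1B and LSD1 (a histone demethylase encoded by *Kdm1a*) are nuclear regulators of gene expression, and the KDs asked how gene expression changes when each is depleted. The groups were *Cbfa2t3* KD with 2 control libraries (labelled WT), 2 of hairpin sh2 and 2 of hairpin sh3, *Irf2bp2* KD with 2 control libraries and 2 of hairpin sh1, *Kdm1a* KD with 1 control and 2 KD libraries, *Gfi1b* KD with 2 control and 2 KD libraries, and MEL differentiation with 2 non-induced and 2 induced libraries. Per the methods of the study, KDs of *Cbfa2t3*, *Irf2bp2* and *Kdm1a* used shRNAs, that of *Gfi1b* used siRNAs, and controls received non-targeting RNAs. All are pools of 1 cell line, so fewer cells of a kind and less RNA per cell cannot be told apart.

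Counted reads numbered between 44519414 and 57684583 in the *Cbfa2t3*, *Irf2bp2* and *Kdm1a* libraries and between 9929311 and 19623105 in the *Gfi1b* and MEL libraries, so that 3 counts, taken as the floor, were 0.0519 to 0.0676 CPM in the former and 0.149 to 0.302 CPM in the latter. The targeted RNA was lower in the first 3 KDs, from 400.2 and 427 CPM to between 123 and 244 CPM for *Cbfa2t3*, from 116 and 119.6 to 92.2 and 94.9 CPM for *Irf2bp2*, and from 152 to 16.9 and 16.3 CPM for *Kdm1a*. *Gfi1b* RNA went against its label in 1 library. It stood at 122 and 145 CPM in the controls, at 76.3 CPM in KD replicate 2 and at 216 CPM in the library labelled *Gfi1b* KD replicate 1. Of erythroid markers 11 of 12 averaged 1 CPM or more in each table, with summed levels of 1280 to 5130 CPM. Of the 7 endothelial markers, which bear on *Vwf* and *Selp* because endothelial cells make both, none averaged 1 CPM, *Cdh5*, *Emcn* and *Robo4* were at the floor in each table, and the sum stayed between 0.158 and 0.992 CPM. Mast cell markers summed to at most 6.53 CPM, lymphoid markers to at most 1.55 CPM, and myeloid markers to at most 21 CPM, most of it *Prtn3*.

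**Figure D1:**
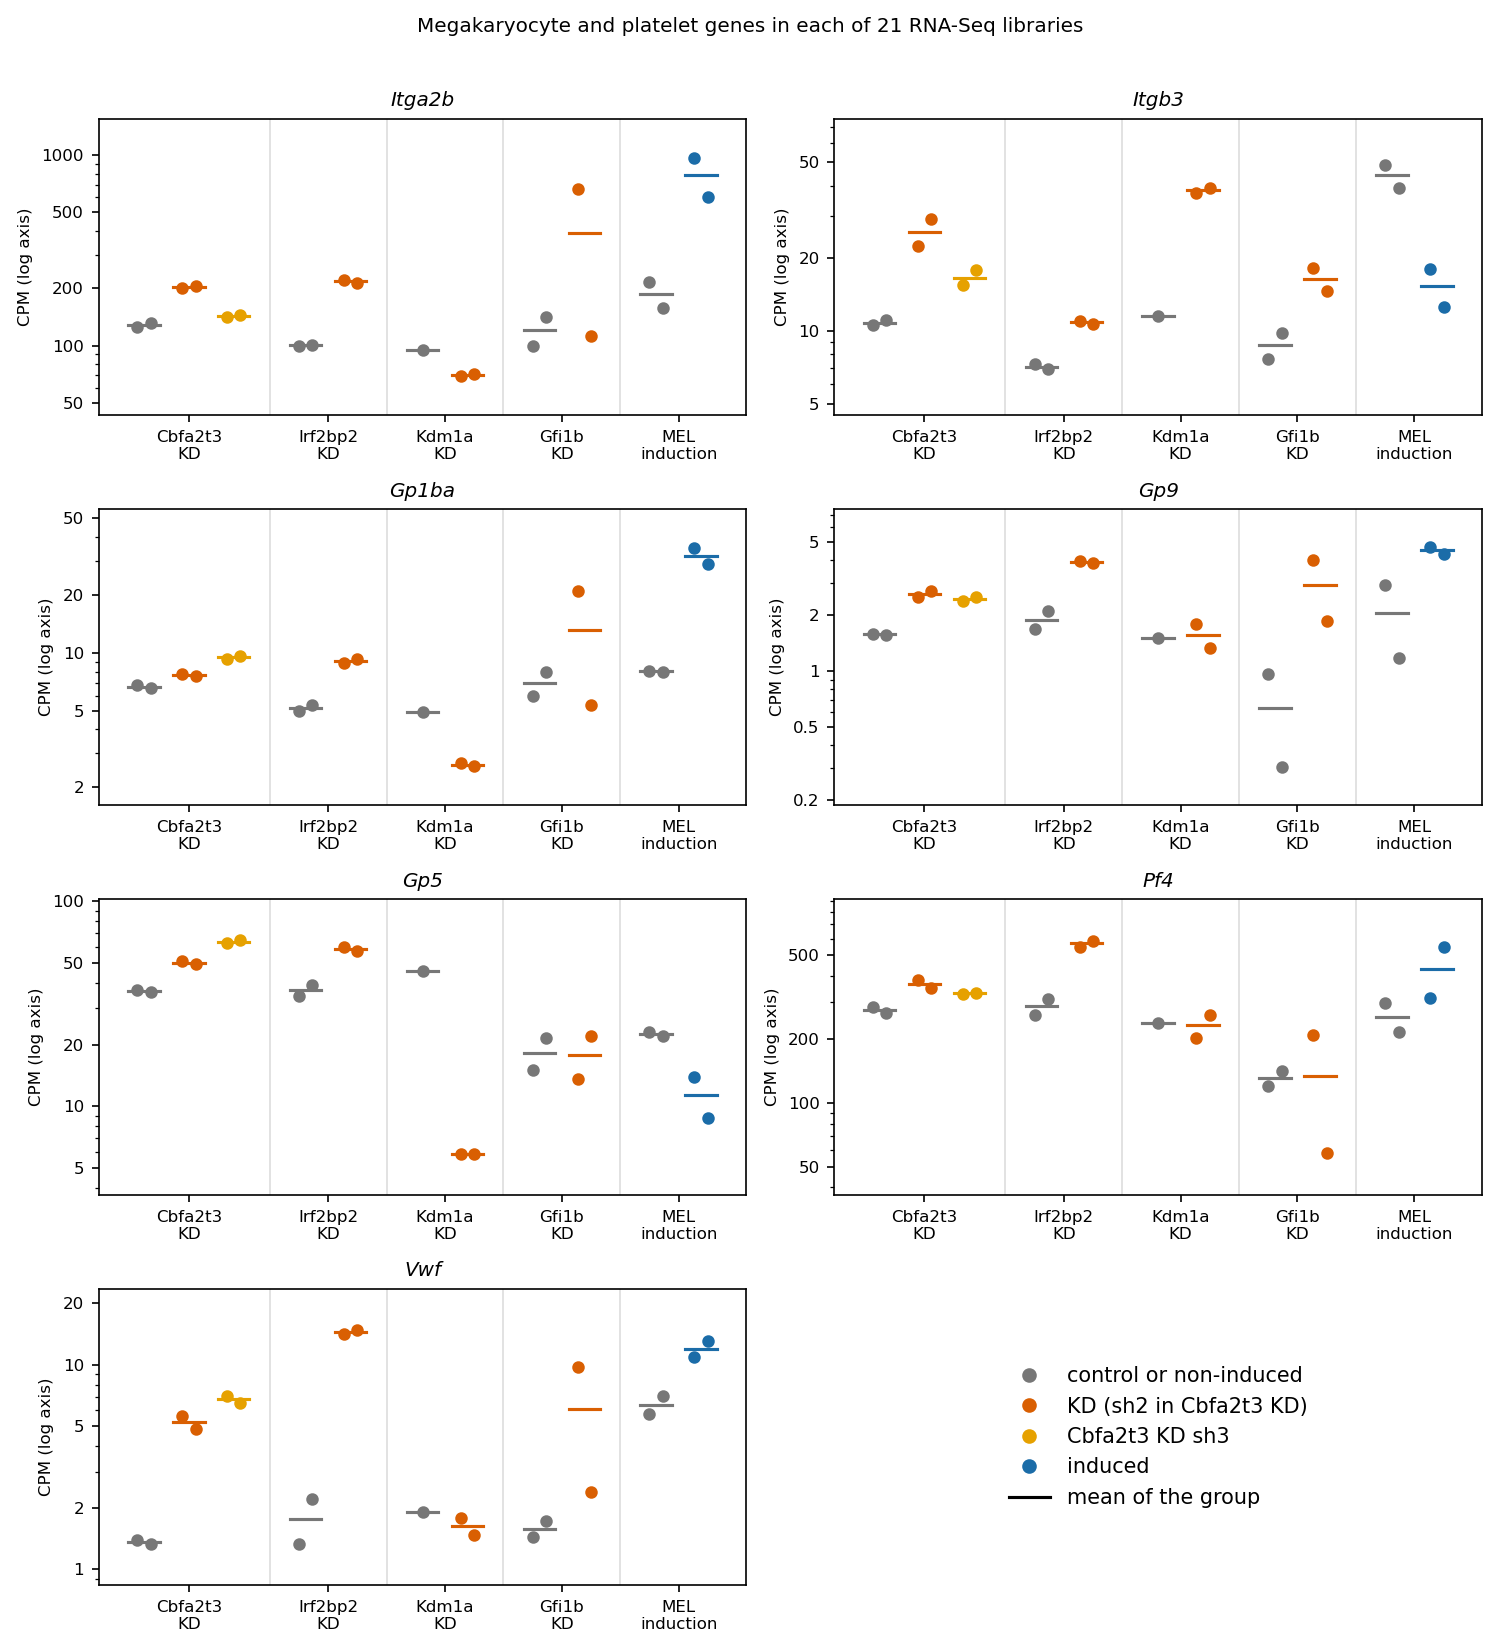
Normalized counts (CPM, log axis) of the 7 genes above the floor in each of the 21 RNA-Seq libraries, with a point per library and a line at the group mean. In *Irf2bp2* KD all 7 genes are called raised (10.1% of all genes tested are), and in *Kdm1a* KD *Itgb3* and *Gp5* move in opposite directions.

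The RNA levels of the 7 genes differed widely per unit of transcript length. In the 9 control and non-induced libraries the RPKM value of *Pf4* had a median of 451 (206 to 541), that of *Itga2b* 36.7 (27.4 to 64.9) and that of *Gp5* 15.9 (6.83 to 20.7). These 3 ranges did not overlap. The medians of *Gp1ba* at 2.42, *Gp9* at 1.95 and *Itgb3* at 1.84 lay close together, and their ranges of 1.8 to 3.04, 0.376 to 3.73 and 1.22 to 8.71 RPKM overlapped. *Vwf* was lowest, with a median of 0.195 (0.151 to 0.785) RPKM, below every control value of *Gp1ba*. The non-induced MEL libraries set the upper ends for *Itgb3* and *Vwf*. *Itgb3* was at 8.71 and 6.67 RPKM in them and at 1.22 to 1.98 RPKM in the controls of the KD tables. *Vwf* was at 0.667 and 0.785 RPKM in them and at 0.151 to 0.255 RPKM in those controls. RPKM values were computed by the authors per library, and the tables were made separately.

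*Cbfa2t3* KD raised 4 of the 7 tested genes and lowered none, with the libraries of hairpins sh2 and sh3 taken as 1 KD group. The p-values of this fit thus treat libraries of different hairpins as replicates, and the hairpins are compared below. *Vwf* rose 4.44-fold, *Itgb3* 1.96-fold, *Gp9* 1.61-fold and *Gp5* 1.56-fold. Of all 12537 genes tested, 2.99% were called raised and 2.75% lowered by the same rule, an adjusted p (Benjamini-Hochberg) of at most 0.05 in edgeR's quasi-likelihood test with a shift of at least 0.5 on the log2 scale. The median log2 fold change was 0.64 over the 7 genes and 0.00 over all genes.

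For the fibrinogen receptor, *Itga2b* stood at 126 and 131 CPM in the controls, at 199.9 and 206 CPM with sh2 and at 142 and 145 CPM with sh3. All 4 KD libraries were above the controls, but the 2 hairpins were far apart and the change of 0.43 ± 0.16 (log2 ± SE) was not called (edgeR adjusted p = 0.123). *Itgb3*, its beta partner, stood at 10.6 and 11.1 CPM in the controls, at 22.4 and 29.1 CPM with sh2 and at 15.4 and 17.8 CPM with sh3. It rose by 0.97 ± 0.23 (edgeR adjusted p = 0.0276), again more with sh2.

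For the receptor of von Willebrand factor, *Gp1ba*, the subunit that binds the ligand, stood at 6.81 and 6.56 CPM in the controls, 7.77 and 7.56 CPM with sh2 and 9.29 and 9.66 CPM with sh3. Its change of 0.36 ± 0.13 was not called (edgeR adjusted p = 0.117). *Gp9*, a small subunit, stood at 1.59 and 1.57 CPM in the controls and between 2.4 and 2.73 CPM in the 4 KD libraries, which rest on 118 to 145 counts each, and it rose by 0.68 ± 0.14 (edgeR adjusted p = 0.0161). *Gp5*, the subunit that thrombin cleaves, stood at 37 and 36.3 CPM in the controls, 51 and 49.5 CPM with sh2 and 62.3 and 65 CPM with sh3. It rose by 0.64 ± 0.12 (edgeR adjusted p = 0.0101), with more in sh3 than in sh2.

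For the granule cargo, *Pf4* went from 284 and 266 CPM to 384 and 349 CPM with sh2 and to 329 and 333 CPM with sh3. Its change of 0.34 ± 0.07 had an edgeR adjusted p of 0.0204 but lay under the fold limit. *Vwf* stood at 1.39 and 1.32 CPM in the controls (71 and 75 counts), at 5.64 and 4.85 CPM with sh2 and at 7.07 and 6.54 CPM with sh3. It rose by 2.15 ± 0.19 (edgeR adjusted p = 0.000318), the highest fold of the 7. Of the 12 erythroid markers 7 also rose in this KD, and their summed level went from 1807 to 1837 CPM in the controls to 2342 to 2930 CPM, a movement whose part in the values above was not tested. Without control replicate 1 or without control replicate 2, only 1 of the 7 passed, *Vwf*, while the share of all genes called fell to 1.05% raised and 1.14% lowered without the former and to 1.46% and 1.36% without the latter. The log2 changes of *Itgb3*, *Gp9* and *Gp5* stayed at 0.93, 0.69 and 0.65 and at 1.00, 0.67 and 0.62. The adjusted p of *Itgb3*, *Gp9* and *Gp5* was then 0.229, 0.159 and 0.113 without the former and 0.177, 0.153 and 0.115 without the latter, and that of *Itgb3* was 0.052 without sh2 replicate 1.

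The 2 hairpins against *Cbfa2t3* did not give the same levels. Tested against each other, sh3 was below sh2 for *Itga2b* by a log2 of 0.50 and for *Itgb3* by 0.63 (differences of -0.50 ± 0.05 and -0.63 ± 0.12, edgeR adjusted p = 0.000172 and 0.00601). Of all genes 1.79% were called lower and 1.92% higher in sh3 than in sh2. *Gp5* differed the other way by 0.34 ± 0.06 (edgeR adjusted p = 0.00369), under the fold limit. *Gp1ba* and *Vwf* were 0.31 ± 0.09 and 0.38 ± 0.12 higher with sh3, with adjusted p of 0.0521 and 0.07 that missed the threshold, and *Pf4* and *Gp9* differed by -0.15 ± 0.06 and -0.09 ± 0.15 (adjusted p = 0.156 and 0.747). *Cbfa2t3* RNA was at 202 and 244 CPM with sh2 and at 123 and 145 CPM with sh3. Against the controls alone, sh2 raised 4 of the 7 genes (3.33% of all genes raised and 3.78% lowered), with *Itga2b* at 0.66 (adjusted p = 1.3e-05) and *Gp5* at 0.45, and sh3 raised 5 (4.39% and 4.8%), with *Gp1ba* at 0.50 (adjusted p = 0.00166) and *Itga2b* at 0.15 (adjusted p = 0.0418).

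*Irf2bp2* KD raised all 7 genes above the floor, against 10.1% of the 12329 genes tested that rose and 12.5% that fell. Its libraries carry only hairpin sh1, so an effect of the hairpin itself cannot be told apart from that of IRF2BP2 depletion. *Irf2bp2* RNA was at 92.2 and 94.9 CPM in them and at 116 and 119.6 CPM in the controls. *Vwf* rose 8.2-fold, *Itga2b*, *Gp9* and *Pf4* rose 1.98-fold to 2.16-fold, and *Gp1ba*, *Gp5* and *Itgb3* rose 1.53-fold to 1.75-fold. The median log2 fold change of the 7 was 0.99, against -0.01 over all genes.

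*Itga2b* went from 100.1 and 101 CPM in the controls to 220.4 and 215 CPM, a rise of 1.11 ± 0.08 (edgeR adjusted p = 1.12e-08). *Itgb3* went from 7.29 and 6.92 CPM to 11 and 10.7 CPM, a rise of 0.61 ± 0.12 (edgeR adjusted p = 0.000627). Both chains of the fibrinogen receptor thus rose.

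*Gp1ba* went from 5.01 and 5.36 CPM to 8.86 and 9.24 CPM, a rise of 0.80 ± 0.13 (edgeR adjusted p = 0.000121). *Gp9* went from 1.7 and 2.11 CPM (84 and 105 counts) to 3.97 and 3.85 CPM, a rise of 1.04 ± 0.19 (edgeR adjusted p = 0.000303). *Gp5* went from 34.5 and 39 CPM to 59.6 and 57.3 CPM, a rise of 0.67 ± 0.09 (edgeR adjusted p = 1.11e-05). The 3 subunits of the glycoprotein Ib complex measured here therefore rose.

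*Pf4* went from 262 and 312 CPM to 550.4 and 588 CPM, a rise of 0.99 ± 0.10 (edgeR adjusted p = 4.3e-07). *Vwf* went from 1.33 and 2.21 CPM (66 and 110 counts) to 14.2 and 14.9 CPM (630 and 770 counts), a rise of 3.04 ± 0.18 (edgeR adjusted p = 8.44e-10). Of the erythroid markers 11 of 12 rose in the same libraries, their sum going from 1604 to 1715 CPM in the controls to 3931 to 4259 CPM. The part of this in the rise of the platelet genes was not tested. *Selp* had 0 and 2 counts in the controls and 0 in both KD libraries, so a level of up to 0.0676 CPM could not be told from none. The endothelial sum was 0.221 and 0.384 CPM in the controls and 0.158 and 0.657 CPM in the KD libraries, with *Cdh5*, *Tie1*, *Emcn* and *Robo4* at the floor.

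**Figure D2:**
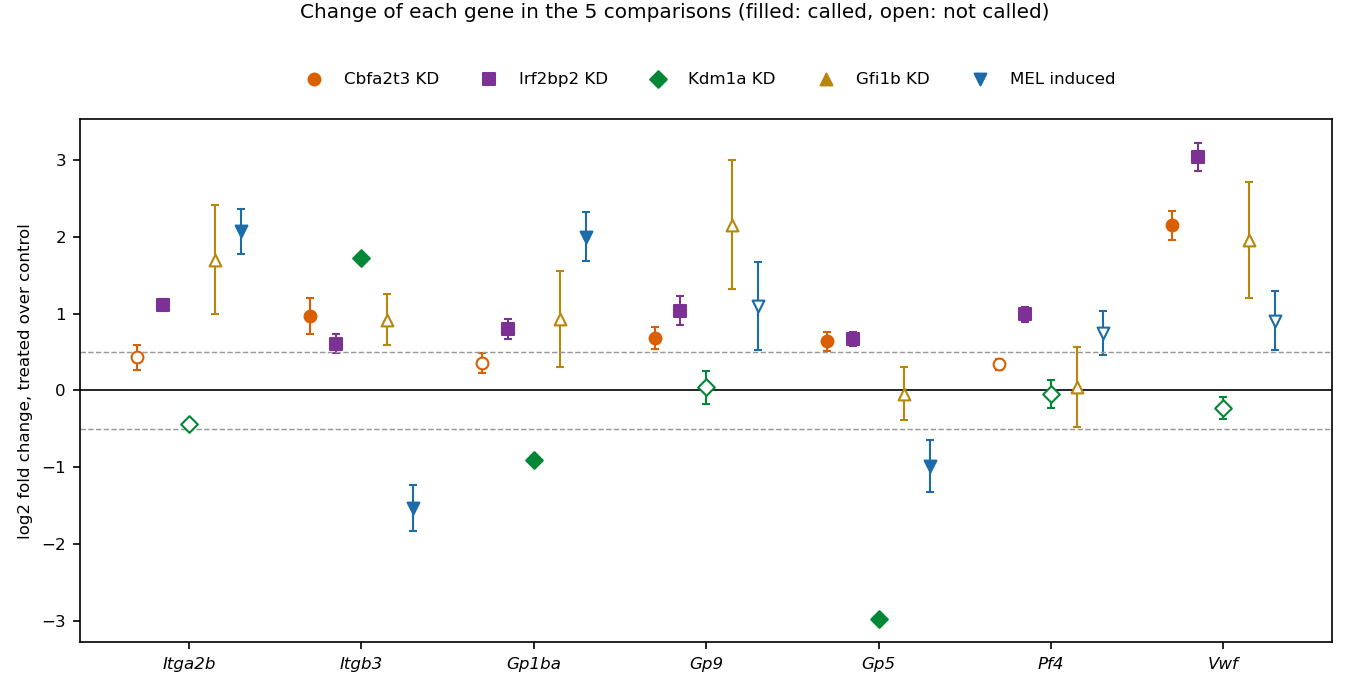
Log2 fold change of each gene over the control of the same table in the 5 comparisons, filled where called and open where not. Bars are the standard errors of the edgeR fit, and for *Kdm1a* KD, which has 1 control, the values of the 2 KD libraries, with dashed lines at the fold limit of 0.5. *Irf2bp2* KD is above 0.5 for all 7 genes, whereas *Kdm1a* KD and MEL induction lie on both sides of 0.

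In *Kdm1a* KD 3 of the 7 genes were called, 1 higher and 2 lower. With 1 control library the calls rest on no test, and a gene is called higher or lower where both KD libraries differ from the control by at least 0.5 on the log2 scale, which held for 13.1% (higher) and 9.8% (lower) of 12628 genes. *Itgb3* was higher, *Gp5* and *Gp1ba* were lower, and the other 4 were not called. An edgeR quasi-likelihood fit of the 3 libraries, whose residual spread between libraries comes from the KD pair alone, called the same 3 genes, against 12.4% of all genes raised and 10.1% lowered. *Gp5* went from 45.9 CPM to 5.83 and 5.82 CPM, 7.83-fold lower and the widest difference of the 7. *Itgb3* went from 11.5 CPM to 37.4 and 39.2 CPM, 3.31-fold higher. *Gp1ba* went from 4.95 CPM to 2.67 and 2.58 CPM, 1.87-fold lower.

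*Itga2b*, the partner of *Itgb3*, went from 94.9 CPM to 69.2 and 70.8 CPM, differences of -0.45 and -0.42 that lie just under the limit. The 2 chains of the fibrinogen receptor thus lay on opposite sides of the control. *Gp9* stood at 1.51 CPM against 1.81 and 1.33 CPM, *Pf4* at 239 CPM against 204 and 262 CPM, and *Vwf* at 1.9 CPM against 1.79 and 1.47 CPM. For *Gp9* and *Pf4* the KD libraries lay on both sides of the control. *Selp* had 1 count in the control and 0 in both KD libraries. Of 11 erythroid markers tested 4 were lower and none higher, their sum going from 1952 CPM to 1360 and 1365 CPM, while the myeloid sum went from 12.5 CPM to between 15.4 and 15.7 CPM (2 of 3 tested higher), the lymphoid sum from 0.286 CPM to between 1.27 and 1.55 CPM (2 of 2 higher) and the mast cell sum from 0.0409 CPM to between 0.175 and 0.332 CPM (1 of 1 higher). The part of these in the values above was not tested.

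In the *Gfi1b* table no gene was called by edgeR's quasi-likelihood test, neither among the 7 nor among the 11190 genes tested (0% raised and 0% lowered), so the values are described. At an unadjusted p under 0.05 with the same fold limit 4 of the 7 were higher, against 5.33% of all genes. DESeq2 called 44 genes raised and 5 lowered (0.258% and 0.0293%), none of them one of the 7, and edgeR without the filter on low counts called 1 of the 7, *Itga2b*, against 2.27% of all genes. The 2 libraries labelled KD disagreed. The methods name 2 siRNAs against *Gfi1b*, and which library received which is not given in the sources used here, so they may not be replicates of 1 treatment. The library labelled *Gfi1b* KD replicate 1, in which *Gfi1b* RNA is 1.61 times the mean of the controls, held the highest level of 6 of the 7 genes in the table, *Gp5* being the exception.

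*Itga2b* stood at 99.1 and 141 CPM in the controls, at 667 CPM in the library labelled KD replicate 1 and at 112 CPM in KD replicate 2. *Vwf* stood at 1.44 and 1.71 CPM in the controls and at 9.74 and 2.38 CPM in the libraries labelled KD, and *Gp1ba* at 5.96 and 7.96 CPM against 21 and 5.34 CPM. In replicate 2 the levels of *Itga2b* and *Gp1ba* were within the range of the controls or below it. *Pf4* stood at 121 and 142 CPM in the controls, 211 CPM in replicate 1 and 57.8 CPM in replicate 2, so that the 2 libraries lay on opposite sides of the controls. *Itgb3* was the gene on which they were closest, at 18.2 and 14.6 CPM against 7.67 and 9.77 CPM in the controls (log2 change of 0.92 ± 0.33, edgeR adjusted p = 0.69). *Gp9* stood at 3.99 and 1.87 CPM against 0.959 and 0.302 CPM, the last of which is 3 counts and at the floor, and *Gp5* at 13.5 and 22.1 CPM against 15 and 21.6 CPM.

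Without the library labelled KD replicate 1, edgeR called *Pf4* lowered by 1.19 (adjusted p = 3.3e-08), against 1.23% of all genes lowered and 2.25% raised, and none of the 7 raised. The changes of *Itga2b* and *Gp1ba* were then -0.10 and -0.37 (adjusted p = 0.859 and 0.782). Without replicate 2 in its place, 6 of the 7 were called raised, against 14.6% of all genes, with *Itga2b* at 2.46 and *Vwf* at 2.61. In both fits a lone library is assumed to vary like the controls. The summed erythroid markers stood at 1280 and 1420 CPM in the controls and spanned 1418 to 3849 CPM in the libraries labelled KD, the part of which was not tested.

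**Figure D3:**
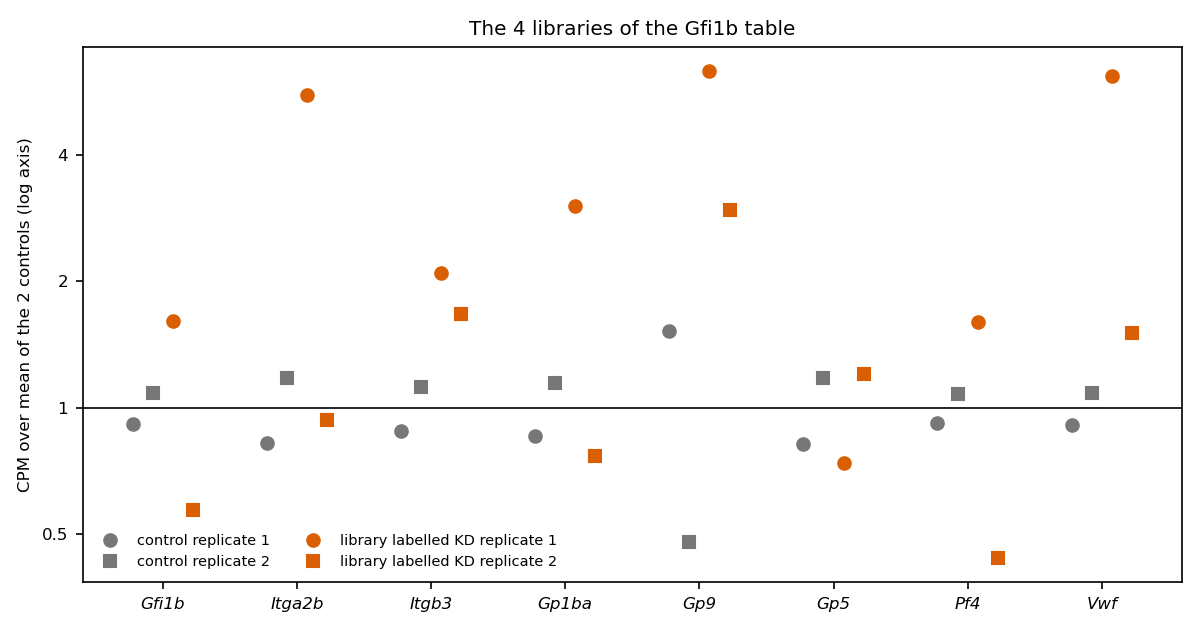
CPM of *Gfi1b* and of the 7 genes in each of the 4 libraries of the *Gfi1b* table, divided by the mean of the 2 controls (log axis, line at 1, circles for replicate 1 and squares for replicate 2). The library labelled KD replicate 1 is at 1.61 for *Gfi1b* itself and at 5.55 for *Itga2b*, and KD replicate 2 is at 0.572 and 0.934. For *Gp9* control replicate 2 is at the floor.

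On induction of MEL cells *Itga2b* rose 4.2-fold and *Gp1ba* 3.99-fold, while *Itgb3* fell 2.88-fold and *Gp5* 1.98-fold, and the other 3 were not called. The call of *Gp5* was lost in 3 of 4 fits that left out a library. Of the 11713 genes tested 12.4% rose and 14.8% fell.

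*Itga2b* went from 217 and 157 CPM in non-induced to 967 and 603 CPM in induced libraries, a rise of 2.07 ± 0.29 (edgeR adjusted p = 0.000264). *Itgb3* went from 48.9 and 39.2 CPM to 18 and 12.6 CPM, a fall with a log2 change of -1.53 ± 0.30 (edgeR adjusted p = 0.00279). The highest value of the alpha chain over the 21 libraries was in an induced library and that of the beta chain in a non-induced one, levels that come from tables normalized separately.

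*Gp1ba* went from 8.06 and 7.98 CPM to 35.1 and 29.1 CPM, a 3.99-fold rise with an SE of 0.32 on the log2 scale (edgeR adjusted p = 0.000662). *Gp5* went from 22.9 and 21.9 CPM to 13.9 and 8.79 CPM, a log2 change of -0.98 ± 0.34 (edgeR adjusted p = 0.0434). *Gp9* stood at 2.94 and 1.18 CPM before and 4.7 and 4.32 CPM after induction, with 14 counts in the lowest library, and its change of 1.10 ± 0.57 was not called (edgeR adjusted p = 0.169), ranging from 0.62 without non-induced replicate 2 to 1.92 without non-induced replicate 1. Of the granule cargo, *Pf4* stood at 297 and 217 CPM against 314 and 549 CPM (0.75 ± 0.29, edgeR adjusted p = 0.068) and *Vwf* at 5.72 and 7.06 CPM against 10.9 and 13.1 CPM (0.91 ± 0.38, edgeR adjusted p = 0.0866). Both induced libraries lay above both non-induced ones for these 3 genes. How often that holds over all genes was not counted, and the replicates were far apart for *Pf4*. Of the erythroid markers 11 of 12 rose, their sum going from 2054 to 2184 CPM to 5003 to 5130 CPM, and whether this bears on the platelet genes was not tested. The call of *Gp5* was lost without non-induced replicate 1 or 2 and without induced replicate 2 (adjusted p = 0.143, 0.134 and 0.299), with a log2 change of -1.36 to -0.68 over the 4 libraries left out in turn. *Pf4* gained a call with the replicate number as a block and with no filter on low counts, as given in the closing section. Without induced replicate 1, which leaves 1 induced library, its log2 change was 1.09.

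The calls of each gene in the 5 comparisons are as follows. *Itgb3* was called higher in the KDs of *Cbfa2t3*, *Irf2bp2* and *Kdm1a* and lower on induction. *Itga2b* was raised by *Irf2bp2* KD and by induction. *Gp5* was raised in the KDs of *Cbfa2t3* and *Irf2bp2* and was lower in *Kdm1a* KD and on induction. *Gp1ba* was raised by *Irf2bp2* KD and induction and was lower in *Kdm1a* KD. *Vwf* and *Gp9* were raised in the KDs of *Cbfa2t3* and *Irf2bp2*, and *Pf4* in *Irf2bp2* KD. Differences between comparisons were not tested, since each table has its own controls.

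Over the 21 libraries, with log2 levels centred on the controls of the same table, the pair with the highest correlation was *Itga2b* and *Gp1ba* (Pearson r = 0.93, and 0.94 without the 4 libraries of the *Gfi1b* table). *Itga2b* and *Itgb3*, whose products form 1 receptor, had an r of -0.34 (-0.58 without the *Gfi1b* table), and *Itgb3* and *Gp1ba* one of -0.58 (-0.75). *Itgb3* had r between -0.58 and 0.19 with the other 6, and *Gp5* between -0.15 and 0.47 (-0.16 to 0.56 without the *Gfi1b* table). The libraries of a group share their treatment, so these values describe the 5 tables and carry no test. Leaving out the *Gfi1b* table was chosen after seeing the data.

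Among 11040 genes with a mean of at least 1 CPM, the genes most like *Itga2b* over these libraries were *Gpr146* (r = 0.98), *Dnajb1* (0.96) and *BC021767* (0.96). Those most like *Itgb3* were *Iqgap2* (0.95), *F2rl2* (0.94), which encodes a protease-activated receptor of mouse platelets, and *Tcf23* (0.92). *Gp1ba* was most like *Pacs2* (0.99), *Adcy9* and *Usp49* (both 0.98), and *Gp9* most like *Zfand2b* (0.92), *Cdc42bpg* and *Bloc1s3* (both 0.90). *Gp5* was most like *Arl6ip4* (0.97), *Pmpca* and *Snf8* (both 0.94), *Pf4* most like *Dgkd* (0.93), *Mob2* (0.90) and *Hlx* (0.89), and *Vwf* most like *Nme3* (0.94), *Tg* (0.93) and *Ptp4a3* (0.92). None of the 7 was among the 3 genes most like another. Without the *Gfi1b* table these values lay between 0.81, for *Gp9* with *Cdc42bpg*, and 0.99.

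ETO2 and IRF2BP2 sites were found at 5 of the 8 genes. A gene was taken as bound when it was the single nearest protein-coding gene, within 1 Mb, of at least 1 of the 13229 sites of the deposited list (1760 ETO2-only, 2730 shared and 8739 IRF2BP2-only), and 29.2% of 22238 genes were bound in that sense. *Itga2b*, *Itgb3*, *Gp1ba*, *Gp9* and *Pf4* were bound, each by both factors, though in *Gp9* at separate sites and not at a shared one. With sites at or above the median fold of 7.33 only *Itgb3*, *Gp9* and *Pf4* were bound (3 of 8, beside 18.9% of all genes). In the full list 13.8% of all genes had an ETO2 site and 26.5% an IRF2BP2 site. *Gp5*, *Vwf* and *Selp* had no site within 20 kb, the nearest lying 78190, 73210 and 199067 bp from the TSS. *Vwf*, with the largest rise in both KDs, is thus among the genes without a near site, and the part of sites in the changes was not tested. The IRF2BP2 sites rest on 1 ChIP and 1 IgG library and the ETO2 sites on a library of an earlier study that was not used here, so the sites have no replicate. The fold over IgG is given as the list has it, and for shared sites the factor whose reads it uses is not given in the sources used here.

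Shared sites lay at the TSS of 3 genes (coordinates in mm9). The site at *Itga2b* (chr11:102331271-102331962, 5.33-fold over IgG) is centred 59 bp upstream of the TSS, that at *Gp1ba* (chr11:70452352-70453423, 6-fold) 77 bp upstream and that at *Pf4* (chr5:91200844-91201781, 10.6-fold) 29 bp upstream. The 200 bases before each TSS are shown because the site centres fall in them. They are read from the mm9 genome on the strand of the gene, with capitals for GATA words (AGATAA or AGATAG, and likewise TGATAA or TGATAG, on either strand) and for the composite E-box and GATA motif that the LDB1 complex is known to bind, which contains a GATA word. None of the windows printed here overlaps an annotated exon.
Itga2b, chr11:102331437-102331636, minus strand: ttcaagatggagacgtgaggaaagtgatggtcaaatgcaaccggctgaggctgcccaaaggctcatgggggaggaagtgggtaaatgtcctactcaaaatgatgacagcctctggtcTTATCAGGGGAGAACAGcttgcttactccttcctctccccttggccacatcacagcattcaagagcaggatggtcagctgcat
Gp1ba, chr11:70452424-70452623, plus strand: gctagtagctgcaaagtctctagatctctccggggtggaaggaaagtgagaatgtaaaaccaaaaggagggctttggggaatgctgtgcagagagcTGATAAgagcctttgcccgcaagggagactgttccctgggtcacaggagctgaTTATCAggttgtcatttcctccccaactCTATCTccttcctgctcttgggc
Pf4, chr5:91201261-91201460, plus strand: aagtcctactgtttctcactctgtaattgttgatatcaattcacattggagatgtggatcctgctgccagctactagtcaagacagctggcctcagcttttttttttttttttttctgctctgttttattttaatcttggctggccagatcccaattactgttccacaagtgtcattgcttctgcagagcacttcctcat

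The *Itga2b* window holds 1 composite motif, the *Gp1ba* window 3 GATA words and the *Pf4* window none of these words. Of the 22380 windows of this kind before all protein-coding TSSs, 20% hold a GATA word and 1.64% a composite motif. *Irf2bp2* KD raised these 3 genes as it did *Gp5* and *Vwf*, which have no near site. Whether a site bears on the change of a gene was not tested. In *Cbfa2t3* KD none of the 3 was called over both hairpins, while *Itga2b* was called with sh2 alone, *Gp1ba* with sh3 alone, and *Pf4* missed only the fold limit.

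*Itgb3* had the most sites, 5 to which it is the nearest gene and 1 more in its 62421 bp body. In introns, shared sites are centred 3699 bp (8-fold), 6303 bp (4.33-fold) and 10895 bp (18.2-fold) after the TSS, an ETO2-only site 14200 bp after it (12.7-fold) and a shared site 53314 bp after it (28-fold), the last being nearer to the TSS of *Gm11639*. Another shared site is centred 11472 bp upstream (8-fold). *Gp9* had an ETO2-only site 2024 bp upstream (chr6:87725780-87726600, 14-fold) and an IRF2BP2-only site 12903 bp after the TSS, beyond the gene (8.5-fold). *Itga2b* had IRF2BP2-only sites 8911 and 11861 bp upstream (4.33-fold and 5-fold), and *Pf4* a shared site 3348 bp after the TSS, beyond the gene (6.86-fold). At *Gp1ba* 3 IRF2BP2-only sites lay 11408 to 15464 bp after the TSS, nearer to *Slc25a11* or *Pfn1* (6.25-fold to 12.5-fold). Another site, IRF2BP2-only and 6307 bp upstream of *Pf4* (9.17-fold), was nearest to *Ppbp*, which encodes a second platelet chemokine. The 200 bases around the centre of 4 sites are shown because each holds a composite motif and lies at a gene raised in both the *Cbfa2t3* and the *Irf2bp2* KD.
Itgb3, shared, intron, chr11:104472969-104473168, plus strand: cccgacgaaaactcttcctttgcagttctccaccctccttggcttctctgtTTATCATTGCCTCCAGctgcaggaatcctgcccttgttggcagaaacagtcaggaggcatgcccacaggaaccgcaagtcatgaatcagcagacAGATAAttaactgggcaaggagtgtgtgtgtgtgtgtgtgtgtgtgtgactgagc
Itgb3, ETO2-only, intron, chr11:104483470-104483669, plus strand: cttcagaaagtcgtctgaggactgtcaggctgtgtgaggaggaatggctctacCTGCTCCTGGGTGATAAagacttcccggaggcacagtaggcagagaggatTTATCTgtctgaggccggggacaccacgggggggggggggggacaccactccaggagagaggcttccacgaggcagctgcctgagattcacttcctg
Itgb3, shared, intron, chr11:104522584-104522783, plus strand: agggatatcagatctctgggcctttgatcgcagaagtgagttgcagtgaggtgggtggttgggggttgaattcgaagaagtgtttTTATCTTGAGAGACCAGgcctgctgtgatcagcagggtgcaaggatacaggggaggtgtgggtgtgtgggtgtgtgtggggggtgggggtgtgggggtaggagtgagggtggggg
Gp9, ETO2-only, upstream, chr6:87726006-87726205, plus strand: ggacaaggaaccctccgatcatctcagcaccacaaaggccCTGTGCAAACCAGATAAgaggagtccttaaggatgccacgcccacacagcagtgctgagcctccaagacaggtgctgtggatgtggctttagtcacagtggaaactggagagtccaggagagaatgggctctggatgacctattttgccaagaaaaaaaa

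Among the 200-base windows of all 13229 sites, 59.7% hold a GATA word and 15.4% a composite motif. The shares were 90.3 and 32.7% for shared, 88.6 and 33.9% for ETO2-only and 44.4 and 6.29% for IRF2BP2-only sites, against which the windows printed here are examples only.

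**Figure D4:**
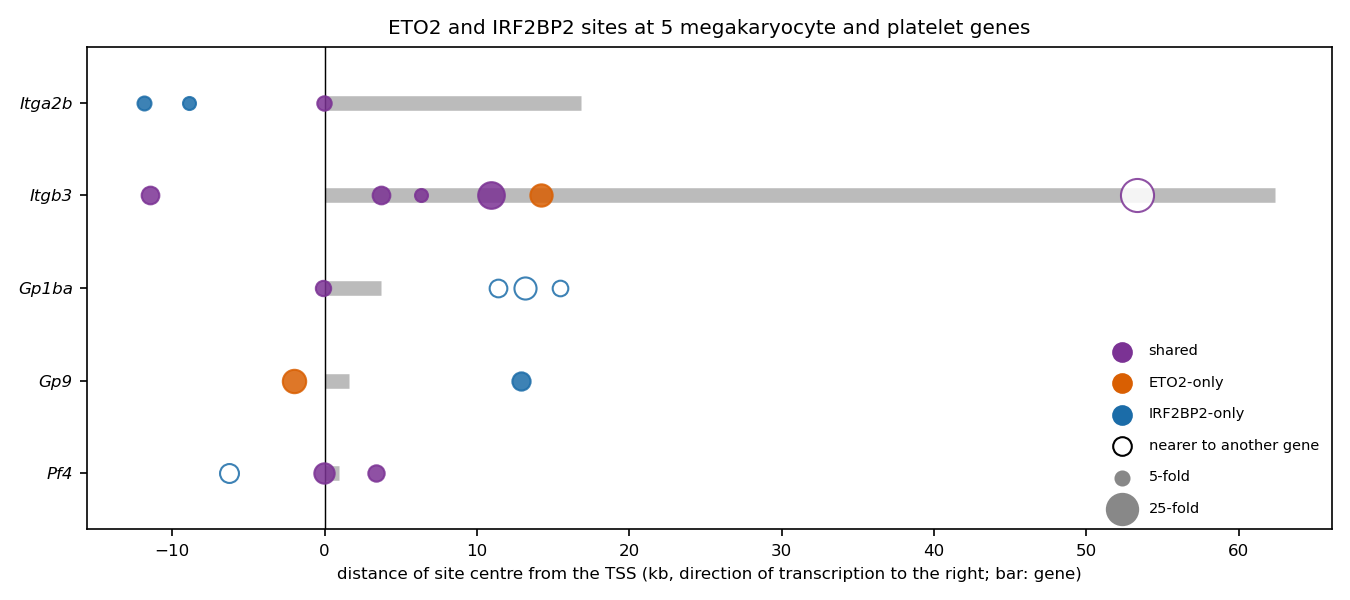
Distance of the centre of each ETO2 or IRF2BP2 site from the TSS (kb, transcription to the right) at the 5 genes with sites, with the gene as a grey bar, the class as colour and the fold over IgG as the area of the circle. *Itga2b*, *Gp1ba* and *Pf4* have a shared site within 77 bp of the TSS, and *Itgb3* has sites through its body. Open circles are sites nearer to another gene.

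A wider list of 68 megakaryocyte and platelet genes, in 4 groups by role, describes the rest of the lineage program. In *Cbfa2t3* KD 48 were tested, of which 4 rose and 6 fell (2.99% and 2.75% over all genes), with a median log2 fold change of -0.00. With the replicate number as a block 2 rose and 6 fell. *Tbxas1* (thromboxane synthase) rose by 1.32 ± 0.30 from 0.25 CPM, *Pdgfb* by 0.76 ± 0.18, *Runx1* by 0.58 ± 0.09 and *Myl9* by 0.52 ± 0.13. *Angpt1* changed by -2.02 ± 0.30, *Rgs18* by -1.82 ± 0.13, *Ptgs1* (cyclooxygenase 1) by -1.37 ± 0.12 and *Meis1*, a transcription factor of progenitors and megakaryocytes, by -1.19 ± 0.16.

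In *Irf2bp2* KD 14 of 48 rose and 8 fell (10.1% and 12.5% over all genes), with a median of 0.27. Transcription factors (4 of 10 tested rose and 1 fell), receptors (4 of 14 rose and none fell) and granule genes (4 of 9 rose and 3 fell) held 12 of the 14 rises, and of 15 cytoskeletal and signalling genes 2 rose and 4 fell. *Ppbp*, the neighbour of *Pf4*, rose by 2.07 ± 0.21 from 5.34 to 22.5 CPM, *F11r* by 1.90 ± 0.19, *Tbxas1* by 1.65 ± 0.40 and *Pear1*, a platelet adhesion receptor, by 1.30 ± 0.17. *Angpt1* changed by -2.96 ± 0.44, *Rgs18* by -2.07 ± 0.14, *Rab27b* by -1.51 ± 0.25 and *Meis1* by -1.49 ± 0.10.

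In *Kdm1a* KD, without a test, 11 of 48 were higher and 7 lower (13.1% and 9.8% over all genes), with a median of 0.16. *Ppbp* was 6.75-fold higher, *Angpt1* 4.33-fold, *F2rl2* 2.36-fold and *Jam3* 2.22-fold, the last on at most 17 counts a library. *Mef2c*, on at most 17 counts, was 2.57-fold lower, *Treml1* 2.16-fold, *Gp1bb* 1.88-fold and *Lat* 1.75-fold. *Ppbp* and *Pf4*, which encode chemokines of the same granules, thus differed in this KD. *Angpt1* fell in the KDs of *Cbfa2t3* and *Irf2bp2* and was higher here.

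In *Gfi1b* KD 41 were tested and none was called by edgeR, with 3 higher and 1 lower at an unadjusted p under 0.05 (5.33% and 1.57% over all genes), and with a median of 0.16. On induction of MEL cells 6 of 46 rose and 17 fell (12.4% and 14.8% over all genes), with a median of -0.58 against -0.02 over all genes. *Pear1* rose by 3.34 ± 0.38, *Clu* by 1.99 ± 0.32, *F11r* by 1.76 ± 0.44 and *Runx1* by 1.24 ± 0.23. *Lat* changed by -2.88 ± 0.41. *Ppbp*, *Angpt1* and *F2rl3* were called lowered with induced libraries at the floor, so no fold is given for them. *Ppbp* had 66 and 79 counts before and 1 and 3 counts after induction. *Angpt1* had 268 and 89 counts against 17 and 0, and *F2rl3* 188 and 77 counts against 12 and 2. Of the 15 cytoskeletal and signalling genes tested 6 fell and none rose. Without 1 library of this table fewer genes of the list were called fallen in some fits. Each of these leaves 1 library in a group and fewer libraries to test, so no count is given. In *Cbfa2t3* KD the number of risen genes was 2 without sh2 replicate 1 (373 of all 12469 genes raised). It was lower still without either control, fits that leave 1 control and in which fewer of all genes were called.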

How the data were processed

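RNA-Seq libraries of MEL cells were compared within each of 5 tables. The authors mapped reads to mm9 with Tophat2 and deposited raw counts and RPKM values per RefSeq gene (rpkmforgenes), which list only genes with a read in some library, and their own DESeq2 comparisons, which were not used. RPKM served only for levels between genes. Binding sites come from 3 peak callers run by the authors with IgG as background, their classes were told apart by class sizes given in the methods, and the deposited list gives a fold (ratio to IgG) and an adjusted p-value per site; the latter was not used.

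Counts were fitted per table in R 4.3.3 with edgeR 4.0.16 (TMM, filterByExpr, glmQLFit and glmQLFTest, Benjamini-Hochberg over all genes). CPM are counts over the total of listed genes times the TMM factor. The test was checked on simulated data. *Kdm1a* KD has 1 control, so its calls rest on log2 levels (prior count of 2), with an edgeR fit of the 3 libraries as an alternative. The methods call the replicates biological. The text names the 8 genes, the 4 called genes of the wider list with the largest rise and fall per comparison, the targeted genes and the 3 most like genes by r of log2(CPM + 0.5). Members and lists were chosen with earlier results of these data known. Alternatives were DESeq2 1.42.0 and its size factors, other count filters, the replicate number as a block, no fold limit, unadjusted p, single hairpins and leaving out each library. Gene positions came from GENCODE vM1. Sites were processed in Python 3.11.15 with pandas 2.3.3 and numpy 2.4.6.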

Additional observations from a re-analysis of the deposited data

Results flagged for a closer look

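The change of 2 of the 7 genes differed between the hairpins against *Cbfa2t3*, by the contrast of sh3 with sh2 in 1 edgeR fit of the 6 libraries (Benjamini-Hochberg over 12537 genes). Of all genes 1.79% were called lower and 1.92% higher in sh3. The log2 difference of sh3 from sh2 was -0.50 for *Itga2b* (203 ± 4.4 CPM with sh2 and 143 ± 1.86 CPM with sh3, SD, n = 2 each) and -0.63 for *Itgb3* (25.7 ± 4.71 and 16.6 ± 1.69 CPM). DESeq2 gave -0.51 and -0.63 (adjusted p = 6.55e-14 and 4.13e-05). Both sh3 libraries were below both sh2 libraries for each gene. *Gp5* differed the other way by 0.34 ± 0.06 (edgeR adjusted p = 0.00369, DESeq2 0.000199), under the fold limit.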

How the results depend on the processing

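In *Irf2bp2* KD each of the 7 genes kept its call and direction in all 63 refits, and in *Kdm1a* KD the counts of 1 higher and 2 lower were kept in all 5 alternatives. In *Cbfa2t3* KD 81 of 91 refits of single genes kept direction and call and none reversed. The raised members numbered 1 to 4 when a library was left out. The raised genes of the wider list numbered 2 with the replicate block, 7 with no limit on the fold change (686 of all 12537 genes raised and 737 lowered) and 7 with sh2 alone (413 of 12405 raised and 469 lowered). They numbered 2 to 5 when a KD library was left out (334 to 407 of all genes raised), and fewer without either control, which leaves 1 control. In *Gfi1b* KD the raised members were 1 with no filter on low counts (*Itga2b*, 1.69, adjusted p = 4.91e-09), 4 at unadjusted p and 0 to 6 when a library was left out, and the lowered members 0 to 1. The wider list had 2 raised and 1 lowered with no filter, and 3 and 1 at unadjusted p. It had 0 to 11 raised and 0 to 8 lowered when a library was left out. The 11 and 8 came without the library labelled KD replicate 2. That fit leaves 1 KD library, and 14.6% of all genes were called raised in it and 12% lowered. Signs turned in this table for *Pf4* with the replicate block (-0.24), without control replicate 1 (-0.09) and without the library labelled KD replicate 1 (-1.19), for *Gp5* without control replicate 2 (0.23) and without the library labelled KD replicate 1 (0.28), and without the latter for *Itga2b* (-0.10) and *Gp1ba* (-0.37). Over the left-out libraries these 4 spanned -1.19 to 0.67, -0.45 to 0.28, -0.10 to 2.46 and -0.37 to 1.59. On MEL induction the raised members were 4 at unadjusted p (18.3% of all genes raised and 21% lowered), the lowered members 1 to 2 and the lowered genes of the wider list 9 to 17 when a library was left out, and *Pf4* was called with no filter (0.74, adjusted p = 0.0196) and with the replicate block (0.71, adjusted p = 0.046). The causes were not tested.

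The labels do not say what a replicate number marks. Libraries of the same number deviated together with r of 0.12 to 0.25 over the 3 pairs of groups in *Cbfa2t3*, where each group holds 2 libraries, 0.03 in *Irf2bp2*, 0.00 in *Gfi1b* and 0.20 in the MEL table. The replicate block called 335 genes raised and 297 lowered in *Cbfa2t3* KD, 1263 and 1571 in *Irf2bp2* KD, none in *Gfi1b* KD and 1785 and 2131 on induction. It left 4, 7, 0 and 3 members raised, and could not be fitted for *Kdm1a* KD. With sites at or above the median fold of 7.33, 3 members were bound, *Itgb3*, *Gp9* and *Pf4*, beside 18.9% of all genes. *Selp* had 0 to 2 counts where it is listed, and *Gp9* had as few as 3 counts in the *Gfi1b* table.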
